A study of Mus musculus with 16 samples.

Results

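Cytosolic ribosomal protein genes were followed across all transcriptomes of the series. They were taken as the gene symbols that begin with Rpl or Rps and a digit, together with Rplp0, Rplp1, Rplp2 and Rpsa, leaving out symbols with -ps (pseudogene copies) and the S6 kinases (Rps6k). This rule found 86 genes among the 31053 genes listed for the lung and mesenteric lymph node (MLN) experiment and the same 86 among the 32285 genes listed for the mediastinal lymph node (medLN) and MLN experiment. It takes in 46 genes of the large ribosomal subunit, 31 of the small subunit, 7 paralogs of such genes and 2 genes, Rpl7l1 and Rps19bp1, that match by their symbol alone. A total of 84 of the 86 had at least 1 UMI (a counted transcript molecule) in each experiment. Rpl3l and Rpl10l, paralogs known from muscle and testis, had 0 UMIs in both experiments. By the annotation of GRCm38 the 86 genes lie on 19 chromosomes, with 4 on the X chromosome.

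All cells came from 4get mice on the C57BL/6 background, in which an IL-4 reporter allele gives green fluorescence (IL-4eGFP) to cells that have opened the Il4 gene. Mice were analysed 10 days after infection with 500 larvae of the helminth Nippostrongylus brasiliensis, with antibiotics in the drinking water for the days after infection, and no uninfected group is used here. Lung samples held some cells from vessels that perfusion had not cleared. In the first experiment, CD4+ IL-4eGFP+ cells were sorted from perfused, enzyme-digested lung and from mechanically dissociated MLN of 2 mice aged 13 weeks, and each organ of each mouse gave 1 library. In the second, CD4+ IL-4eGFP+ and CD4+ IL-4eGFP- cells were sorted from medLN and MLN of 2 mice aged 10 weeks. Organ and mouse were marked there by 4 hashtag antibodies, and each fluorescence gate formed 1 pooled library, so gate and library cannot be told apart. The replicates are mice, 2 per group, and p-values measure the spread between these few samples. Between the gates, the 4 samples per gate are medLN and MLN of the same 2 mice, taken from 1 pooled library. Those p-values measure the spread between hashtag samples within a library and not the spread between libraries.

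After the cell filters, 4714 of 6319 barcodes were kept in the first experiment, with 416 to 2462 cells and 2798232 to 14512767 UMIs per sample. In the second experiment 16748 of 19683 barcodes were kept, with 1992 to 2249 cells and 7546083 to 10636927 UMIs per sample. The sorted identity was visible in the counts. The 5 markers of CD4 T cells were all found, at a summed 3781 to 5212 CPM (UMIs per 1000000 UMIs of the sample) in the first experiment and 3704 to 4628 in the second. Il4 stood at 153 to 187 CPM in the 4 IL-4eGFP+ node samples and at 0 to 0.398 in the 4 IL-4eGFP- samples. The summed level of 5 erythroid markers stayed at or under 1.22 CPM in every sample. The largest overlap of cell barcodes between 2 libraries was 113, between the IL-4eGFP+ library of 8074 cells and the IL-4eGFP- library of 8674 cells.

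A ribosome is built from a large and a small subunit, and each subunit joins ribosomal RNA to a fixed set of proteins of which most are needed in equal numbers. Messenger RNAs of ribosomal proteins usually begin with a C followed by a run of pyrimidines, the 5′ terminal oligopyrimidine tract, through which the growth kinase mTORC1 controls how strongly they are translated. Lymphocytes make ribosomes at high rate when they leave quiescence and grow, and in resting naive lymphocytes, which hold little mRNA in all, ribosomal protein mRNAs usually make up a large share of the transcripts. Counts of mRNA, as used here, do not show how many ribosomes a cell holds or how fast it translates.

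The transcript starts of 7 genes that the results below turn on are shown because the pyrimidine tract, where present, begins there. The first 2 lines are the ancestral gene Rps27 and its retrotransposed copy Rps27rt, the third is the paralog Rps27l, Rps24 and Rpl38 are members with large differences between the gates, and Rpl7a and Rpsa are members with small ones. Each sequence holds the 15 bases before and the 15 bases after the annotated start. Capitals mark its longest run of at least 5 pyrimidines, or the first where runs tied, as in Rps27rt. In Rps27rt and Rps27l the marked run lies wholly before the annotated start, and in Rpsa it begins after it. A marked run is therefore not always a tract at the start of the mRNA.
Rps27: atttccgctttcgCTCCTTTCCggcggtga
Rps27rt: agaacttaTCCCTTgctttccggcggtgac
Rps27l: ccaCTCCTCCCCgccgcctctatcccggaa
Rps24: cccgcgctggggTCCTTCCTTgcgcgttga
Rpl38: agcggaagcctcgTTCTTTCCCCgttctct
Rpl7a: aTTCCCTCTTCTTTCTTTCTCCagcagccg
Rpsa: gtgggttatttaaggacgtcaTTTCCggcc
These are RefSeq sequences of GRCm38.p6, at chr3:90213634-90213663 (minus strand), chr9:114982725-114982754 (minus), chr9:66946071-66946100 (plus), chr14:24490663-24490692 (plus), chr11:114668565-114668594 (plus), chr2:26910792-26910821 (plus) and chr9:120127751-120127780 (plus), in the order of the lines. Where the table gave several starts for a gene (Rps24 and Rps27l), the first is shown. The longest run had 21 bases in Rpl7a and 5 in Rpsa, the pair of members with the smallest differences between the gates among those that passed the test.

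RefSeq promoter sequences, from 250 bases before to 50 bases after the start, matched 66 of the 86 genes. A C followed by at least 7 bases that are each C or T was found on the gene's strand within 20 bases of the start in 30 of the 66 (45.5%), against 14.4% of 26959 other genes. CCGGAAG, the core of ETS family binding sites, was found on either strand anywhere in the window in 26 of the 66 (39.4%), against 9.86% of the other genes. The remaining motifs searched, also on both strands, were TATAAA (10.6% against 15.7%) and AAGATGGC (9.09% against 3.18%), and matches of different motifs were counted without regard to overlap. Members with the pyrimidine run had a median log2 fold change between the gates, defined below, of -0.61, and members without it had a median of -0.60. A match says only that the letters are present.

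Ribosomal protein genes held between 22.4% and 32.6% of the UMIs of a sample. IL-4eGFP+ cells of the nodes had the lowest share and IL-4eGFP- cells of the same nodes the highest. In MLN the 86 genes held 22.8% ± 0.0176 of all UMIs (SD, n = 2 mice) in IL-4eGFP+ cells and 32.4% ± 0.324 in IL-4eGFP- cells. In medLN the shares were 22.6% ± 0.323 and 31.0% ± 0.306. The single samples were 22.8% and 22.8% for MLN IL-4eGFP+, 22.8% and 22.4% for medLN IL-4eGFP+, 32.1% and 32.6% for MLN IL-4eGFP-, and 31.2% and 30.8% for medLN IL-4eGFP-. The 4 IL-4eGFP+ samples lay close together and did not overlap with the 4 IL-4eGFP- samples. In the first experiment the share was 27.0% ± 0.583 in MLN and 25.8% ± 0.285 in lung, with single values of 26.6% and 27.4% in MLN and of 26.0% and 25.6% in lung. These shares carry no test, as they sum over the members. No single gene dominated the sum. In the first experiment Rpsa, Rps24, Rplp0, Rps27 and Rplp1 together gave 13.1% of the members' UMIs, and in the second no member gave over 4.15% of them in any sample. MLN IL-4eGFP+ cells were sampled in both experiments, at 27.0% and 22.8%, and since the mice, their age and the Cell Ranger version differed, levels were not compared across experiments.

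**Figure D1:**
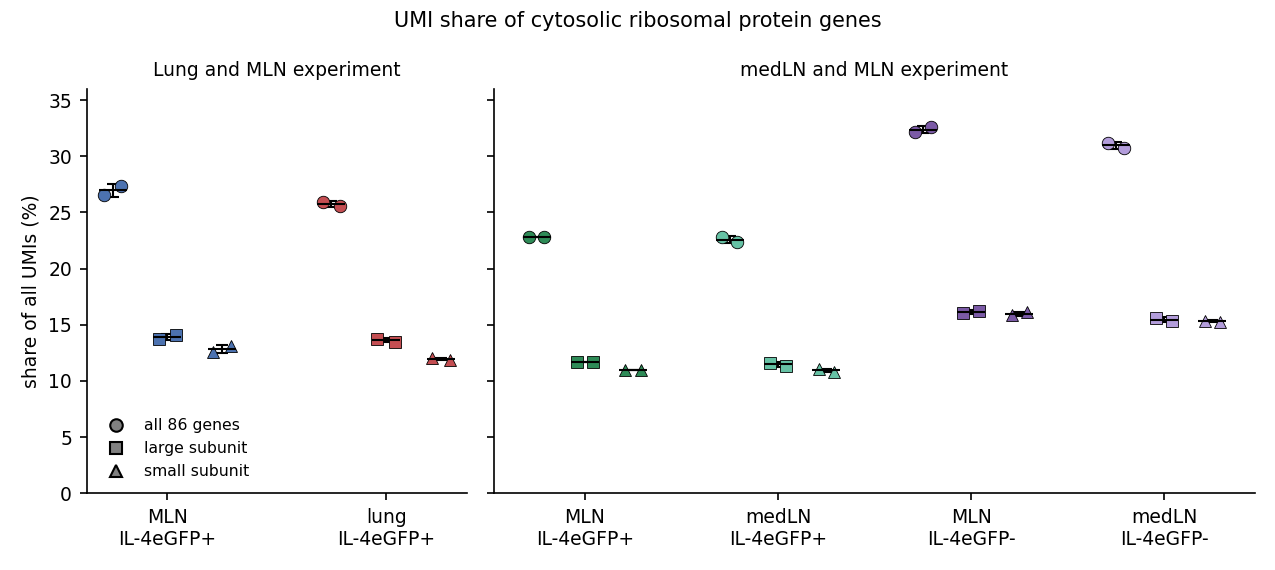
Share of all UMIs held by the 86 ribosomal protein genes (circles), by its 46 large subunit genes (squares) and by its 31 small subunit genes (triangles), for each sample of each group, with mean and SD (bars, n = 2 mice). The IL-4eGFP- node samples sit at 30.8% to 32.6%, above the IL-4eGFP+ node samples at 22.4% to 22.8%.

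The balance of the subunits moved with the gate. The 46 large subunit genes held 1.06 ± 0.00173 UMIs for each UMI of the 31 small subunit genes in MLN IL-4eGFP+ cells and 1.05 ± 0.00461 in medLN IL-4eGFP+ cells. The ratio was 1.01 ± 0.00253 in MLN IL-4eGFP- cells and 1.01 ± 0.00845 in medLN IL-4eGFP- cells. In the first experiment it was 1.14 ± 0.00427 in lung and 1.08 ± 0.00705 in MLN. The samples of lung and MLN did not overlap, nor did those of the gates.

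The shift between the gates was seen in most cells. The median share per cell was 22.5% to 23.2% in the 4 IL-4eGFP+ node samples and 31.4% to 32.9% in the 4 IL-4eGFP- samples. The upper quartile of the IL-4eGFP+ cells (25.3% to 25.9%) lay below the lower quartile of the IL-4eGFP- cells (26.8% to 28.7%). The median depth per cell was similar, with 3166 to 3667 UMIs in the IL-4eGFP+ samples and 3268 to 3371 in the IL-4eGFP- samples. The mean depth was higher in the IL-4eGFP+ samples, which held 9205232 to 10636927 UMIs in 1992 to 2058 cells. The IL-4eGFP- samples held 7546083 to 8073432 UMIs in 2091 to 2249 cells. Deep cells weigh more in the summed shares and tests. The median cell held 738 to 903 UMIs of ribosomal protein genes in the IL-4eGFP+ samples and 1033 to 1120 in the IL-4eGFP- samples. A share cannot tell fewer ribosomal protein molecules from more of all other molecules, and the amount of RNA per cell was not measured. Within samples the share of a cell rose weakly with its depth, with a Spearman rho across 416 to 2462 cells of 0.0671 to 0.241 in the IL-4eGFP+ samples of both experiments and of 0.301 to 0.356 in the IL-4eGFP- samples, where share and depth are computed from the same counts.

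**Figure D2:**
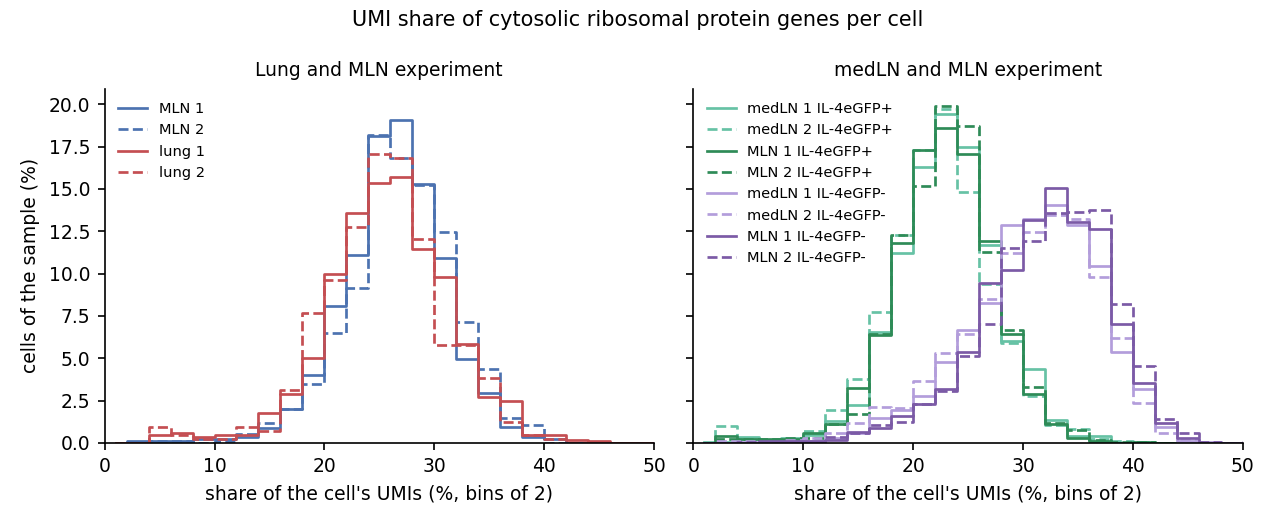
Distribution over cells of the share of a cell's UMIs that fell on ribosomal protein genes (bins of 2 percentage points), as percent of the cells of each sample, for lung and MLN (left) and for medLN and MLN by gate (right). Solid and dashed lines are the first and second mouse, and medians are 22.5% to 23.2% for IL-4eGFP+ and 31.4% to 32.9% for IL-4eGFP- node cells.

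Markers of other T cell states moved with the gate as well. The summed level of 6 genes of naive and recirculating T cells (Ccr7, Lef1, Klf2, S1pr1, Igfbp4 and Dapl1) was 2248 to 2456 CPM in IL-4eGFP- samples and 538 to 706 in IL-4eGFP+ samples. A set of 6 genes of cycling cells (Mki67, Top2a, Birc5, Cdk1, Ccnb2 and Ube2c) summed to 995 to 1253 CPM in IL-4eGFP+ samples and 100 to 201 in IL-4eGFP- samples. Of 4 regulatory T cell markers, Foxp3 stood at 4.21 to 11.4 CPM in IL-4eGFP+ and 48.7 to 76.1 CPM in IL-4eGFP- samples, while Ctla4, which activated cells also express, stood at 108 to 147 and 58.3 to 97.5 CPM. The sum of the 4 was 240 to 305 and 268 to 385 CPM. Markers of myeloid cells summed to 166 to 218 CPM in IL-4eGFP+ and 100 to 123 CPM in IL-4eGFP- samples, with S100a8 and S100a9 at 0, and those of B cells to 24.8 to 45.2 and 18.3 to 39.6 CPM. The part of naive cells in the gap between the gates was not tested.

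Cycling and regulatory cells, taken as cells with a UMI of a marker, which favours deep cells, had lower shares in the IL-4eGFP- gate. Cells with a UMI of Mki67 or Top2a held 24.6% to 28.0% ribosomal protein UMIs there, against 31.4% to 33.1% in cells without one. In the IL-4eGFP+ gate the same classes held 21.3% to 21.8% and 23.2% to 23.9%. IL-4eGFP- cells with a UMI of Foxp3, the lineage factor of regulatory T cells, held 24.1% to 27.9% (189 to 257 cells per sample) against 31.8% to 33.1% in those without. Cells of the cycling class were deeper, with a median of 5147 to 8728 UMIs against 2911 to 3359 in the remaining cells of the nodes, while Foxp3+ cells of the IL-4eGFP- gate had a median of 2768 to 3158 UMIs.

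Lung cells with effector cytokine transcripts had a lower share than the remaining lung cells. Lung cells with a UMI of Il5 or Il13, cytokines of fully differentiated Th2 cells, held 24.5% and 23.9% ribosomal protein UMIs in the first and second mouse (351 and 88 cells). The remaining lung cells held 26.8% and 26.1%. In MLN of the same mice, cells with such a UMI were few (30 and 10) and held 26.3% and 25.2%, against 26.6% and 27.4% in the remaining cells. In the IL-4eGFP+ gate of the nodes the corresponding values were 19.1% to 20.6% (20 to 73 cells per sample) and 22.5% to 23.1%.

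Gene by gene, nearly the whole set was lower in IL-4eGFP+ than in IL-4eGFP- node cells. UMIs were summed per hashtag sample and compared with edgeR's quasi-likelihood test over 11535 genes. Levels of single genes are given below as TMM-scaled CPM. Markers of cell types, cell states and tissue dissociation are the exception, given as CPM of the sample total without TMM. Of the 84 members tested, 80 fell and 2 rose at an adjusted p under 0.05, when 30.4% of all genes tested were lower and 31.9% were higher. The 46 large subunit genes and the 31 small subunit genes all fell, with a median log2 fold change of -0.60 and -0.73, respectively, though some members, among them Rpsa, Rpl7a, Rpl41 and Rps12, turned positive when library totals replaced TMM. The median over all genes tested was -0.01. The median over all 84 members was -0.63, and members ranged from -1.35 to 0.62. For comparison, 45 other genes expressed at or above the lower quartile of the members' levels (1354 CPM) had a median of -0.27, with 27 lower and 10 higher. Scaling by library totals in place of TMM shifted the median of all genes by 0.18 and gave 5336 higher and 2071 lower genes in place of 3676 and 3502, and it gave 73 lower and 5 higher members with a median of -0.44.

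**Figure D3:**
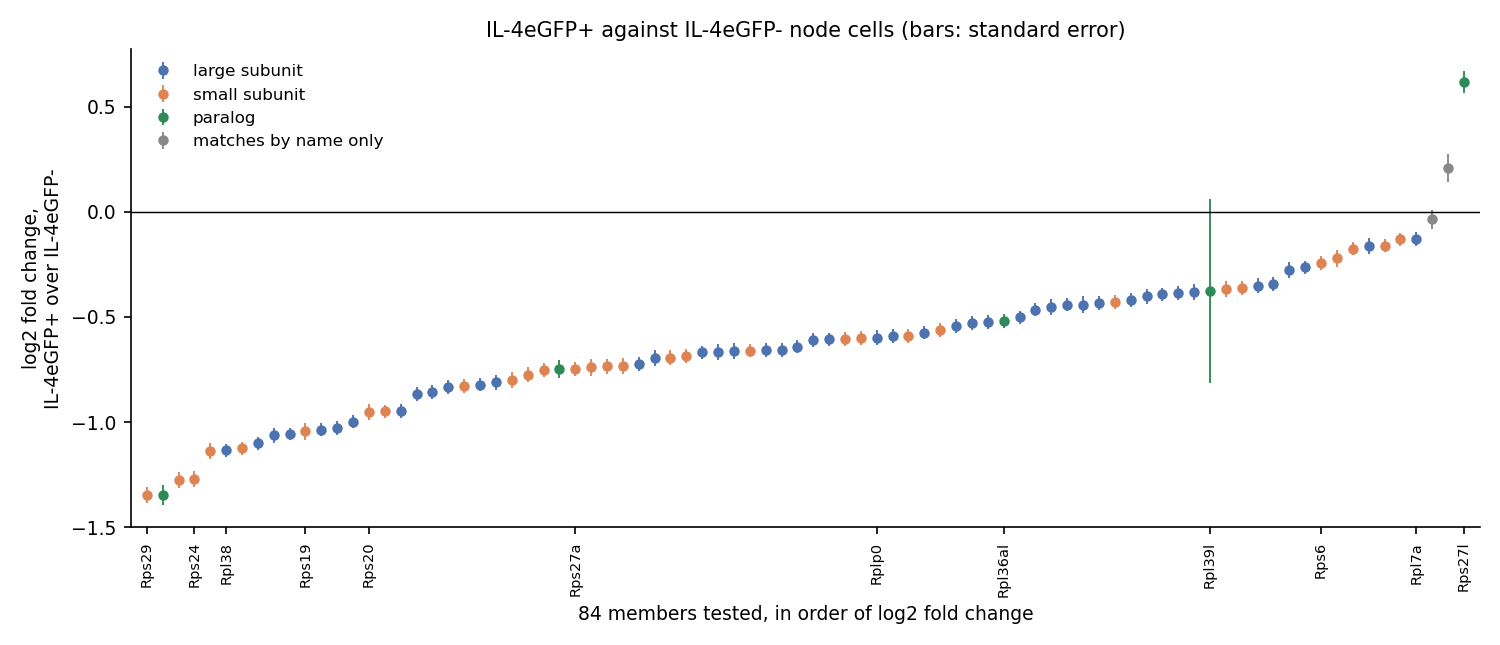
Log2 fold change of CPM, IL-4eGFP+ over IL-4eGFP- node cells, for the 84 members tested, ordered by value and coloured by role, with some genes labelled and standard errors from edgeR (n = 4 samples per gate). The values run from -1.35 for Rps29 to 0.62 for Rps27l, and Rpl39l, with 5 to 16 UMIs per sample, has the widest error.

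Within the set the change was far from uniform. Rps29, a zinc-binding protein of the small subunit, fell the most, from 2245, 2236, 2410 and 2514 CPM in IL-4eGFP- cells (medLN 1, medLN 2, MLN 1 and MLN 2) to 937, 920, 936 and 899 CPM in IL-4eGFP+ cells. This was a 2.55-fold difference in level (log2 fold change -1.35, SE 0.0381, adjusted p = 3.79e-10, edgeR). Rps24, a small subunit gene that is mutated in some patients with Diamond-Blackfan anaemia, went from 12385, 12292, 13158 and 13884 CPM to 5461, 5229, 5444 and 5252 CPM. In both genes the IL-4eGFP- samples differed little from each other and none reached down to an IL-4eGFP+ sample. The samples of a gate shared 1 library, so this closeness does not show how far libraries differ. In the first experiment Rps29 stood at 4148 and 7842 CPM in the MLN libraries of the first and second mouse. The part of the library in the gap between the gates was not tested.

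Rps28, also of the small subunit, had 1715, 1731, 1803 and 1913 CPM in IL-4eGFP- cells and 762, 722, 734 and 734 CPM in IL-4eGFP+ cells (log2 fold change -1.28, SE 0.0375). Rpl38, a large subunit gene known for its part in the translation of Hox mRNAs, had 1135, 1119, 1217 and 1252 CPM and 528, 516, 543 and 565 CPM in the same order (log2 fold change -1.13, SE 0.0308). Rps27 and its retrotransposed copy Rps27rt fell by 1.14 and 1.35 on the log2 scale. Further members with a log2 fold change under -1 were Rps21 (-1.12), Rpl39 (-1.10), Rpl30 (-1.06), Rpl36 (-1.06), Rps19 (-1.04), Rpl37 (-1.04) and Rpl36a (-1.03). Adjusted p-values of the 13 members under -1 lay between 3.29e-10 and 1.79e-09 (edgeR).

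At the other end, several members fell by little. Rpsa, the gene with the most UMIs of the set in both experiments and also known as the laminin receptor, had 9141, 9066, 9633 and 9976 CPM in IL-4eGFP- cells and 8518, 8440, 8552 and 9024 CPM in IL-4eGFP+ cells (log2 fold change -0.13, SE 0.0316, adjusted p = 0.00370, edgeR). Rpl7a, a large subunit gene, was lower by the same amount (-0.13, SE 0.0319), and other small differences were those of Rpl41 (-0.16), Rps12 (-0.17), Rps2 (-0.22) and Rps6 (-0.24), the target of the S6 kinases. The direction of the first few is tied to the scaling. With library totals Rpsa, Rpl7a, Rpl41 and Rps12 had log2 fold changes of 0.06, 0.06, 0.03 and 0.02, and Rpsa and Rpl7a then passed the test as higher.

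The stalk proteins, which recruit elongation factors to the large subunit, changed together. Rplp0 fell from 9143, 9042, 9693 and 10099 CPM to 6352, 6180, 6087 and 6450 CPM (log2 fold change -0.60, SE 0.0366). Rplp1 and Rplp2, which form dimers on it, fell by 0.58 and 0.61 on the log2 scale. Rps27a, which is made as a fusion with ubiquitin, fell by 0.75.

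Shorter members fell more. Over the 84 members the log2 fold change and the coding length had a Spearman rho of 0.446, whereas it was -0.0950 over 10659 other genes with a known length. Members with a coding length of at most 394 bases had a median of -0.95, and members with at least 556 bases had a median of -0.49. The matching group of short genes reached 999 bases among the other genes, against 394 among members, so the lengths differed. For lung against MLN, with a separate library for each sample, the members' rho was 0.345 over 83 members. For medLN against MLN it was 0.211 in IL-4eGFP+ cells and -0.0126 in IL-4eGFP- cells, also over 83 members. Over other genes it was 0.0553, 0.126 and 0.0296 in the same order. These are descriptions across genes. Each gate was 1 library, and the part of the library was not tested.

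Rps27l was the only member with a clear rise in IL-4eGFP+ cells. Rps27l, a paralog of Rps27 that is known as a target of p53, had 138, 142, 130 and 132 CPM in IL-4eGFP- cells and 207, 210, 189 and 225 CPM in IL-4eGFP+ cells (log2 fold change 0.62, SE 0.0532, adjusted p = 1.23e-06, edgeR). Rps27l gave 11.2 to 14.3 UMIs per 100 UMIs of Rps27 in IL-4eGFP+ node samples and 3.47 to 4.13 in IL-4eGFP- samples. In the first experiment, where all cells were IL-4eGFP+, it gave 2.87 and 2.20 in MLN and 3.08 and 3.09 in lung. The ratio thus differed widely between libraries of IL-4eGFP+ cells, and the part of the library was not tested. The second gene called higher was Rps19bp1, which encodes a binding partner of Rps19 and no ribosomal protein (0.21, SE 0.0680, adjusted p = 0.0190). This call was lost in 5 of the alternatives run, among them equal depth per cell (adjusted p = 0.608), DESeq2 (adjusted p = 0.0968) and leaving out the second medLN IL-4eGFP+ sample (0.0634) or the first medLN IL-4eGFP- sample (0.0504).

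Other paralogs kept or changed their balance with their partner in their own ways. Rpl36al, a copy of Rpl36a, gave 79.5 to 82.5 UMIs per 100 of Rpl36a in IL-4eGFP+ node samples and 55.0 to 58.3 in IL-4eGFP- samples. Both fell, but Rpl36al by less (-0.52 against -1.03). In the IL-4eGFP+ cells of the first experiment Rpl36al gave 57.8 and 54.7 in MLN and 56.6 and 57.2 in lung. The part of the library was not tested. Rpl22l1, the paralog of Rpl22, which is known for its role in the development of αβ T cells, gave 55.1 and 56.5 UMIs per 100 of Rpl22 in medLN IL-4eGFP+ samples, 47.7 and 50.6 in MLN IL-4eGFP+ samples and 54.1 to 55.9 in IL-4eGFP- samples. Rps27rt gave 3.56 to 3.81 per 100 of Rps27 in IL-4eGFP+ and 4.17 to 4.42 in IL-4eGFP- samples. The sequences at the starts of Rps27 and Rps27rt share a run of 38 bases, while Rps27 and Rps27l share at most 10. Reads that match Rps27 and Rps27rt equally well may be missing from both counts, so the split between them is uncertain. Rpl39l, known from testis, had 5 to 16 UMIs per sample and did not pass the test (-0.38, SE 0.439, adjusted p = 0.480, edgeR).

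**Figure D4:**
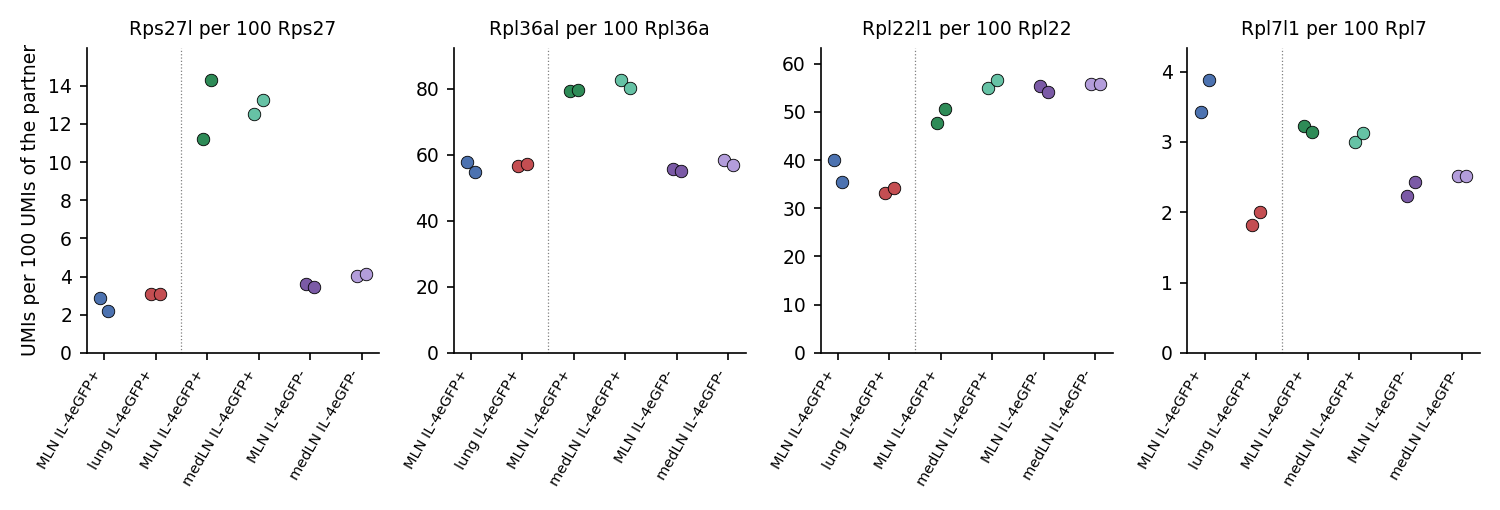
UMIs of 4 genes per 100 UMIs of the partner gene in each sample (points, 2 mice per group), with the lung and MLN experiment to the left of the dotted line. Rps27l and Rpl36al are higher relative to their partners in IL-4eGFP+ than in IL-4eGFP- node cells, at 11.2 to 14.3 against 3.47 to 4.13 and 79.5 to 82.5 against 55.0 to 58.3, and Rpl7l1 is lower relative to Rpl7 in lung (1.82 and 2.01) than in MLN (3.43 and 3.87).

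Near-identical pseudogene copies limit what is known of some members. Rpl10-ps3, which the rule leaves out, had more UMIs than Rpl10 in the counts, with 24991 against 6648 in the first MLN sample, so that much of the signal of Rpl10 may lie under the copy. Rpl10 and Rpl10-ps3 both had a log2 fold change of -0.28 between the gates. Rpl9-ps6 had 49823 UMIs against 11100 of Rpl9 in the first MLN sample. Here copy and member differed between the gates, with -0.78 for Rpl9-ps6 and -0.54 for Rpl9. Together, the -ps features of the set held 0.512% to 0.746% of the UMIs of a sample.

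Genes around the ribosome were examined from lists of translation and growth genes. Ribosomal proteins that the naming rule leaves out also fell in IL-4eGFP+ cells, with Fau, made as a ubiquitin-like fusion, at -0.72 and the small subunit scaffold Rack1 at -0.33. Of 11 elongation factors and their relatives 9 fell and 2 rose, with Eef1a1, which brings aminoacyl-tRNA to the ribosome, at -0.62, Tpt1 at -0.56 and Eif5a at 0.33. Of 38 initiation factors 14 rose and 14 fell (Pabpc4 0.70, Eif4a2 -0.53), near the 31.9% higher and 30.4% lower of all genes.

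Genes that build ribosomes and genes of the mitochondrial ribosome differed in direction from each other. Of 78 ribosome biogenesis genes 47 fell and 9 rose, with Polr1b, a subunit of RNA polymerase I, at -0.87, Rrp9 at -0.77 and the nucleolar protein Ncl at 0.41. Of 78 mitochondrial ribosomal proteins 38 rose and 7 fell, with Mrps6 at 0.88, Mrpl51 and Mrpl27 at 0.60 and Mrpl23 at -0.47. All genes tested had 31.9% higher and 30.4% lower. The summed share of UMIs of the mitochondrial list was 0.706% ± 0.0109 in MLN IL-4eGFP+ and 0.551% ± 0.00503 in MLN IL-4eGFP- cells. Of 24 growth regulators 10 fell and 2 rose. Myc, a transcription factor that drives ribosome production, had 201, 198, 192 and 211 CPM in IL-4eGFP- and 60.8, 60.4, 51.6 and 68.1 CPM in IL-4eGFP+ samples (-1.73, SE 0.0709, adjusted p = 3.35e-09, edgeR). The growth regulators that rose were Deptor, an mTOR inhibitor (4.27, SE 0.517), and Eif4ebp1, a translation repressor that mTORC1 switches off, by 0.79. Deptor was low in level and differed widely between the IL-4eGFP+ samples, with values given below for the nodes. Sesn1 fell the most (-1.81), and Pdcd4, an inhibitor of Eif4a, fell by 0.91.

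Between lung and MLN, the ribosomal protein genes as a set showed little difference. The comparison asks how IL-4eGFP+ cells of a peripheral organ differ from those of a distant node. Of 83 members tested 0 were higher and 2 were lower in lung (edgeR, adjusted p under 0.05), when 17.0% of 10588 genes were higher and 14.0% were lower. At an unadjusted p under 0.05 there were 3 members, when 42.4% of all genes were. DESeq2 gave 0 higher and 1 lower, when 10.8% of all genes were higher and 6.48% lower. The median member had a log2 fold change of 0.07, with -0.01 over all genes, and the standard error of a member had a median of 0.149, so that differences of this size were not detectable with 2 mice per organ. The 77 genes of the subunits proper held 0 calls and ranged from -0.27 (Rpl12) to 0.37 (Rpl37a). Scaling by library totals shifted the median of all genes by -0.15, gave 1309 higher and 2050 lower genes in place of 1803 and 1481, and gave 11 lower members with a median of -0.07.

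**Figure D5:**
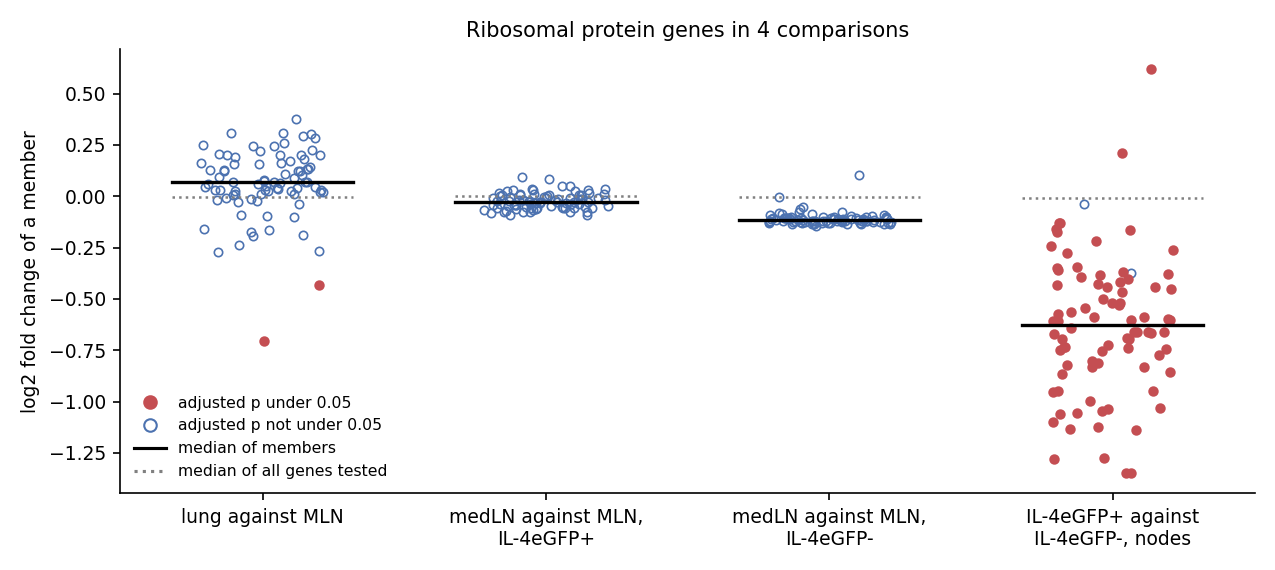
Log2 fold change of each member tested in the 4 comparisons (83, 83, 83 and 84 points), with filled points for an adjusted p under 0.05 from edgeR, a black line at the median of the members and a dotted line at the median of all genes tested. The member medians are 0.07, -0.03, -0.12 and -0.63 from left to right, and called members number 2, 0, 0 and 82.

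Both genes that fell in lung match the rule by symbol alone. Rpl7l1, a nucleolar factor of large subunit assembly, had 42.6 and 41.7 CPM in lung and 67.2 and 71.0 CPM in MLN (log2 fold change -0.71, SE 0.117, adjusted p = 0.00175, edgeR). It gave 1.82 and 2.01 UMIs per 100 of Rpl7 in lung and 3.43 and 3.87 in MLN. Rps19bp1 had 25.1 and 24.6 CPM in lung and 33.1 and 34.4 CPM in MLN (-0.43, SE 0.134, adjusted p = 0.0346), and this call was lost without either MLN sample (adjusted p of 0.149 and 0.151), without the first lung sample (0.0895), with DESeq2 (0.266) and at equal depth per cell (0.160). The samples of lung and MLN did not overlap for either gene.

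Members of the subunits with the largest differences did not pass the test. Rpl37a had 7412 and 6107 CPM in lung and 4831 and 5607 CPM in MLN (0.37, SE 0.171, adjusted p = 0.127, edgeR). Rpl7a had 1575 and 1386 CPM in lung and 1216 and 1176 CPM in MLN (0.31, adjusted p = 0.105). With the mouse as a block, which pairs the lung and MLN of an animal, 6 members passed as higher and 2 as lower. Those higher included Rpl37a, Rpl7a, Rpl14, Rpl41 and Rpl4 (adjusted p of 0.0192 to 0.0443, edgeR). In that fit 19.9% of all genes were higher and 16.8% were lower. Without the second lung sample the median member log2 fold change was 0.16, and without the first lung sample it was -0.02. The fits without a lung sample rest on 1 lung sample that is assumed to vary like the MLN samples.

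The MLN samples of the first experiment disagreed for a few members. The second mouse had 7842 CPM of Rps29 against 4148 in the first, a ratio of 1.89, and 5 of 83 members differed by over 1.5 times between the MLN samples, against 0 of 83 between the lung samples. The others were Rpl17 (1617 and 868 CPM), Rpl35a (1972 and 1143 CPM), Rps28 (4969 and 3068 CPM) and Rpl38 (3913 and 2483 CPM), always higher in the second mouse. Rps29, Rps28 and Rpl38 were also among the members with a log2 fold change under -1 between the gates. In the median member the MLN samples differed by a ratio of 1.06 and the lung samples by 1.14. How many of all genes tested differed by over 1.5 times was not counted, so these counts do not set members apart from other genes.

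Tissue processing differed between the organs, and so did genes known to rise on tissue dissociation. A set of 12 such early response and heat shock genes summed to 8484 and 8279 CPM in lung and 1193 and 823 in MLN, in the first and second mouse. It included Fos, Jun, Junb and Hspa1a. In the first and second mouse Junb alone stood at 5364 and 4549 CPM in lung and 399 and 221 in MLN. Egr1, also of the set, stood at 113 and 170 against 86.9 and 109. The part of tissue processing in the comparison of the organs was not tested. Th2 markers summed to 2053 and 1546 CPM in lung and 624 and 605 in MLN, and regulatory markers to 555 and 538 against 177 and 147. The latter sum was carried by Ctla4, at 451 and 442 CPM in lung and 97.2 and 73.0 CPM in MLN, while Ikzf2 stood at 16.6 and 26.8 against 64.8 and 64.1 CPM and Foxp3 at 0.758 to 2.50 CPM in all 4 samples.

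Some translation genes outside the set passed the test between the organs, when 17.0% of all genes were higher and 14.0% lower. Of 11 elongation factors and their relatives 3 rose and 0 fell in lung. The relatives Eef2k and Eef1e1 rose by 1.31 and 0.44. Eef2, which moves the ribosome along the mRNA, rose from 1749 and 1665 CPM in MLN to 3174 and 2847 CPM in lung (0.82, SE 0.139, adjusted p = 0.00204, edgeR). Of 38 initiation factors 6 rose and 1 fell (Eif1 0.51, Eif2b4 -0.47). Of 78 ribosome biogenesis genes 0 rose and 13 fell, led by Nip7 (-0.71), Wdr12 (-0.68) and Nop10 (-0.66). Of 78 mitochondrial ribosomal proteins 1 rose and 14 fell, with Mrps6 at -1.02 and Mrpl33 at 0.77. Among 24 growth regulators 3 rose and 4 fell. Eif4ebp1 rose by 1.24, while Deptor fell the most (-1.63) and Ddit4, an mTORC1 inhibitor, fell by 1.07. Myc did not pass the test (0.02, SE 0.209). Fau and Rack1 did not pass it either (0.08 and 0.33).

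The nodes were compared to ask whether cells of the lung-draining and the gut-draining node differ. In IL-4eGFP+ cells 0 of 83 members passed the test in either direction, when 1.28% of 11263 genes did (edgeR). At an unadjusted p under 0.05 there were 0 members, when 12.4% of all genes were. DESeq2 also called 0, against 1.08% of all genes. The members' median log2 fold change, medLN over MLN, was -0.03 and the values ranged from -0.09 (Rpl38) to 0.09 (Rpl22l1). The median standard error of a member was 0.0398, from hashtag samples of the same pooled library. Rpl22l1 had 770 and 755 CPM in medLN and 703 and 726 CPM in MLN and did not pass the test (adjusted p = 0.447, edgeR). Of the lists of translation and growth genes 1 gene passed, Deptor, an mTOR inhibitor, with 1.59 and 2.73 CPM in medLN and 7.84 and 15.5 CPM in MLN (-2.44, SE 0.393, adjusted p = 0.0306, edgeR).

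In IL-4eGFP- cells the members were slightly lower in medLN as a group, without a call. Again 0 of 83 passed in either direction, when 0.178% of 10684 genes did, and the smallest adjusted p was 0.476 (edgeR). DESeq2 also called 0, against 0.159% of all genes. At an unadjusted p under 0.05 there were 73 members, when 6.23% of all genes were. Of 83 log2 fold changes 82 were negative, with a median of -0.12 against -0.003 over all genes. The members' median became -0.06 with library totals. Since members share the scaling and the cells of a sample, such counts are not independent. Rpl23 had 6534 and 6505 CPM in medLN and 7044 and 7270 CPM in MLN (-0.13, SE 0.0396). Without the first MLN sample 39 members passed as lower, when 109 of 11014 genes did, which rests on 1 remaining MLN sample that is assumed to vary like the others. Regulatory markers stood at 332 and 385 CPM in medLN and 268 and 285 in MLN, with Foxp3 at 57.7 and 76.1 against 48.7 and 61.0. Naive markers stood at 2252 and 2248 CPM against 2379 and 2456. The part of regulatory and naive cells was not tested.

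The difference between the gates was tested for a difference between the nodes. For 0 of 84 members did the log2 fold change between the gates differ between medLN and MLN (interaction term, edgeR), when 0.156% of 11535 genes did. At an unadjusted p under 0.05 there were 13 members, when 807 of 11535 genes were. The median of the difference over the 84 members was 0.10, the gap between the gates being larger in MLN. With the hashtag sample as a block, which pairs the gates of an organ and mouse, 4 members passed, when 0.702% of all genes did, among them Rps19, Rps20 and Rps4x (differences of 0.15 to 0.17, adjusted p of 0.0219 to 0.0364). Rps20 had 8012, 8023, 8639 and 8890 CPM in IL-4eGFP- cells of medLN 1, medLN 2, MLN 1 and MLN 2 and 4431, 4350, 4241 and 4317 CPM in IL-4eGFP+ cells.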

How the data were processed

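Single cells were profiled with 10x Genomics 5′ chemistry. The authors deposited raw UMI counts per gene and cell, made with Cell Ranger (3.0.1 for lung and MLN, aligned to mm10, and 6.1.2 for the nodes, whose 2 libraries were aggregated). For the node run, the sources used here give neither a genome build nor whether aggregation equalised depth. The deposited TCR contig tables served to select cells.

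A barcode was kept if its UMIs and its detected genes both exceeded 500, its mitochondrial share was under 7% and its novelty (log genes over log UMIs) over 0.8. Lung and MLN cells also needed a productive TCR α and β chain. Node cells were assigned by HTODemux (Seurat 5.3.0, quantile 0.99), which removed doublets between hashtags. No other doublet caller was run. UMIs were summed per sample. TCR genes were left out of the tests (268 genes). edgeR 4.0.16 in R 4.3.3 was used with filterByExpr, TMM scaling, the quasi-likelihood test and Benjamini-Hochberg adjustment over all genes tested, with a threshold of 0.05. Organ was a covariate between the gates. Standard errors are the log2 fold change divided by the root of F. The fits were tested on simulated data. Alternatives were other scalings, DESeq2 1.42.0, no filter on low counts, a replicate block, leaving out each sample, cells thinned to 2000 UMIs, other cell and hashtag filters, and classes of cells left out.

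Same-numbered samples came from the same mouse, so their numbers pair the samples. The correlation of their deviations was 0.0352 for lung and MLN, 0.243 and 0.141 for the nodes by gate, and 0.0959 and 0.103 between the gates.

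The members and gene lists were chosen with earlier results of these data known. Members named in the text are, for each comparison, up to 6 called in each direction with the largest and smallest fold change, paralogs with their partners, stalk and other fixed proteins, the 5 with the most UMIs, and the 4 on each side farthest from the median. From each list of other genes, up to 3 called in each direction were available. Rps21, Rpl30 and the further members under -1, Rps12, Rps2, Rpl23, the members that differed between MLN samples, and the members passing with a block were named after their values were seen. Sequences were matched by symbol. Some genes are not reported here, and the sum of naive markers leaves such a gene out.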

Additional observations from a re-analysis of the deposited data

Results flagged for a closer look

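Within each gate of the node experiment, the highest or lowest of the 4 samples was examined for the members that the naming rule selects and for their summed share. Of 62 sets of values 4 held a sample that stood apart by Dixon's criterion at the 95% level, when chance gives about 1 in 20. Rps19bp1 had 29.1 CPM in the first MLN sample of IL-4eGFP- cells against 26.9 to 27.2 in the other samples. Rpl36a had 903.0 CPM in the second MLN sample of IL-4eGFP+ cells against 869.2 to 871.6 in the others. Rpl39l had 1.59 CPM in the first medLN sample of IL-4eGFP+ cells against 0.448 to 0.608 in the others, from 16 UMIs against 5 to 6. The share of UMIs held by the members was 22.4% in the second medLN sample of IL-4eGFP+ cells and 22.8% in each of the other 3.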

How the results depend on the processing

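Of the 80 members lower in IL-4eGFP+ node cells, 73 were still called lower and 5 turned positive with library totals. All 80 were still called lower in each of the other alternatives run. Of all genes 18.0% were lower with library totals and 19.5% to 31.3% in the other alternatives. The alternative without Foxp3+ cells was added after the data had been seen. The median member log2 fold change was -0.436 with library totals, -0.593 in cells without Mki67 or Top2a and -0.672 without Foxp3+ cells, and from -0.671 to -0.606 with a sample left out. Members called higher numbered 5 with library totals, 1 with DESeq2, at equal depth per cell and in cells without Mki67 or Top2a, and 1 to 2 with a sample left out. In these fits 25.6% to 46.3% of all genes were higher. With library totals Rpl41 (0.0269), Rpsa (0.0596), Rpl7a (0.0598) and Rpl7l1 (0.154) turned positive. The cause was not tested. Rps6 remained negative but lost its call with library totals. For lung against MLN, members called lower numbered 11 with library totals (median -0.067) and 1 with DESeq2 or at equal depth. Of all genes 19.4%, 6.48% and 10.0% were lower in these fits. Members called higher numbered 6 with the replicate block, when 19.9% of all genes were. With a sample left out the median member log2 fold change was -0.0218 to 0.160. For medLN against MLN in IL-4eGFP- cells the median was -0.0602 with library totals, and 0 to 39 members were lower with a sample left out. For the difference of the gate effect, 4 members passed with the replicate block, and the median was 0.0433 with library totals and 0.0622 at equal depth. The replicate block changed no other count of members. Over all genes it gave 52 higher and 13 lower in place of 16 and 3 for the IL-4eGFP- nodes, and 32 and 49 in place of 8 and 10 for the difference of the gate effect. The member share moved by more than the SD between mice as follows. Leaving mitochondrial and TCR genes out of the total gave 28.0% (MLN) and 26.6% (lung) in the first experiment, and 23.2% (medLN IL-4eGFP+), 23.4% (MLN IL-4eGFP+), 31.9% (medLN IL-4eGFP-) and 33.3% (MLN IL-4eGFP-). Leaving out cells with Mki67 or Top2a gave 26.4% (lung), 23.5%, 23.7%, 31.6% and 32.7% in the same order of node groups. Using every barcode deposited as a cell gave 25.3% (lung) and 22.7% (MLN IL-4eGFP+). With 2 mice per group, small differences between organs lie below what these data resolve, and intervals on the amount of RNA per cell cannot be given.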
